A study of Mus musculus with 18 samples.

Results

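The glycolysis and hypoxia genes described here are 37 gene symbols, matched by name in both expression tables of the study. They comprise 16 glycolytic enzymes (Hk1, Hk2, Gpi1, Pfkl, Pfkm, Pfkp, Aldoa, Tpi1, Gapdh, Pgk1, Pgam1, Eno1, Eno2, Pkm, Ldha and Ldhb), 4 glucose or lactate transporters (Slc2a1, Slc2a3, Slc16a1 and Slc16a3) and 3 enzymes that set glycolytic flux (Pdk1, Pfkfb3 and Pfkfb4). The other 14 belong to the pathway of hypoxia-inducible factor (HIF): Hif1a itself, Egln1, Egln3, Bnip3, Bnip3l, Car9, Vegfa, Adm, P4ha1, P4ha2, Ankrd37, Ndrg1, Higd1a and Mif. All 37 symbols were found, as 38 of the 55183 rows of the cell table and 38 of the 19464 rows of the brain table, because Aldoa has a second, weakly read row (ENSMUSG00000114515.2, at most 2.07 FPKM in cells). FPKM are fragments per kilobase of gene, scaled to the size of the library. Of the 38 rows in each, 36 passed the filter of at least 1 FPKM in at least 3 libraries. Pfkp and Car9 did not pass it in cells, and Slc16a3 and the second Aldoa row did not pass it in brain, so the 16 enzyme rows tested in cells are 15 enzymes and the second Aldoa row.

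RNA was sequenced from PTCP53 304 cells, a mouse Sonic hedgehog (SHH) medulloblastoma line of genotype Ptch1+/-; Trp53-/-, after CT-179, which inhibits the oligodendrocyte lineage factor OLIG2, or after vehicle. The cell groups were CT-179 for 144 h, vehicle for 144 h, CT-179 for 24 h and vehicle for 24 h. Whole brains came from mice labelled Ptch1+/-; IR that received CT-179 or vehicle from postnatal day 3 to postnatal day 15. The labels do not explain IR, and the titles of the CT-179 brains also name vehicle. Library names start with C for the brains labelled vehicle and with V for those labelled CT-179. Each of the 6 groups had 3 libraries, and since no label ties them to separate cultures or animals, the p-values reflect the spread of these libraries alone, part of which may be technical. All cell groups share 1 line and both its deletions, and no oxygen level or glucose supply is given in the labels.

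Glycolysis splits glucose to pyruvate through a chain of cytosolic enzymes, and lactate dehydrogenase converts pyruvate to lactate, which leaves the cell through monocarboxylate transporters. HIF-1 is a transcription factor whose alpha subunit is hydroxylated by the EGLN prolyl hydroxylases and degraded while oxygen is present. When oxygen is low, HIF-1 binds the hypoxia response element, whose core is ACGTG or GCGTG, at genes for glucose uptake, glycolysis and vessel growth. Proliferating cerebellar granule precursors and the SHH medulloblastomas that arise from them are known for aerobic glycolysis, in which Hk2 is the SHH-induced hexokinase.

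A few facts of the libraries bear on the values. The depth implied by the FPKM steps was 29500000 to 70900000 reads in cells and 17800000 to 63500000 reads in brain. CT-179 replicate 2 at 144 h correlated with its own group at 0.941 to 0.943, against 0.996 to 0.998 for the other pairs of a cell group. In brain, Lars2 and Gm15564, which overlap, took 12.5% of the reads of vehicle replicate 2, against 0.0638% to 0.0731% in the other 5 libraries, and its Tpm3-rs7 level of 16.7 FPKM lay among the CT-179 brains (16.4 to 21.0 FPKM) and not with the other vehicle brains (0.223 and 0.304 FPKM). Of the markers of the labelled cell type, Gli1 was present in the cells (9.38 to 12.3 FPKM in CT-179 cells and 19.4 to 21.1 with vehicle at 144 h) while Atoh1 was at most 0.0254 FPKM in any cell library. Endothelial markers summed to at most 0.366 FPKM and erythroid markers to at most 0.0778 FPKM in cells.

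The promoters of the members at which the results turn are shown because they hold, or lack, the letters of the HIF core element. The windows run from 250 bases before to 50 bases after the start of a RefSeq transcript (GRCm38.p6, the same assembly as mm10), are written 5′ to 3′ on the strand of the gene, and are the most upstream window of each gene. Capitals mark ACGTG or GCGTG on either strand (read as CACGT or CACGC on the opposite one), and the palindrome CACGTG counts as a match on both strands.
Hk2 (chr6:82774405-82774704, minus strand): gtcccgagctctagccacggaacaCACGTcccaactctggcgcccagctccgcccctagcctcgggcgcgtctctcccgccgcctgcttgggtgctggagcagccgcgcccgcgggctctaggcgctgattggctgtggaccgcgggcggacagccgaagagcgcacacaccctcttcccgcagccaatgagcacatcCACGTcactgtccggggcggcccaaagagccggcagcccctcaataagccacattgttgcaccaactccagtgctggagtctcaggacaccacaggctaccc
Eno1 (chr4:150236458-150236757, plus strand): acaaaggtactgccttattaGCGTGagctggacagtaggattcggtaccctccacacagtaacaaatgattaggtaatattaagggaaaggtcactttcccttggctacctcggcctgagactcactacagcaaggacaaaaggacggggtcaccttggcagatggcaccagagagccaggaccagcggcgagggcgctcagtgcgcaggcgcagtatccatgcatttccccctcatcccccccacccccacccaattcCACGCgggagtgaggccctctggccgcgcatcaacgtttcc
Ldha (chr7:46845554-46845853, plus strand): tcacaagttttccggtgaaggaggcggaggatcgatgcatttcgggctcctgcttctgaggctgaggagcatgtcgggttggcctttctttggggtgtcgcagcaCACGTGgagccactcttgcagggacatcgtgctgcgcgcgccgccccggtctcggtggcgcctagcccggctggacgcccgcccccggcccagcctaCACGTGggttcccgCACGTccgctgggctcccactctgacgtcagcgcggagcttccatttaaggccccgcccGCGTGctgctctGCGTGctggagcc
Eno2 (chr6:124769624-124769923, minus strand): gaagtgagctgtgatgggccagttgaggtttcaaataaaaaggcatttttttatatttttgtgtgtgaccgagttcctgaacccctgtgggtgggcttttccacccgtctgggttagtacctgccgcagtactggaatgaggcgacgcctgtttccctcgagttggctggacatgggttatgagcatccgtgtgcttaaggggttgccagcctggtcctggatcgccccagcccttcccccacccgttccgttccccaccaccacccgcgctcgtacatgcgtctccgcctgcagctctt
P4ha2 (chr11:54100674-54100973, plus strand): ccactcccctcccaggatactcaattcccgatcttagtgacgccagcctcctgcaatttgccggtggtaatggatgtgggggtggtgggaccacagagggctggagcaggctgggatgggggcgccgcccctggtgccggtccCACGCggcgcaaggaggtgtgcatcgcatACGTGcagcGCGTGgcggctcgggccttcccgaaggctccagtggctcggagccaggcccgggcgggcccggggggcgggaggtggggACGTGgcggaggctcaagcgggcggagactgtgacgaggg
The Ldha window held 7 matches, 4 of them in 2 separate CACGTG palindromes, the P4ha2 window held 4, the Hk2 and Eno1 windows held 2 each, and the Eno2 window held 0. Of the 37 symbols, 34 had a window in the RefSeq table (all except Slc2a3, Bnip3l and Ndrg1), and 27 of these 34 (79.4%) held at least 1 match, against 14380 of 32851 promoter windows of the table (43.8%). A match was present in 10 of 16 glycolytic enzymes, 3 of 3 transporters, 3 of 3 flux enzymes and 11 of 12 HIF pathway genes. Of the members with a window, 18 of 23 lower at 144 h in vehicle held a match (78.3%), and 4 of 6 higher did (66.7%). The members were listed as glycolysis and HIF pathway genes, so their share against all windows is not an independent test. A match describes letters only, and binding was not measured.

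The main difference among these genes was between the times. At 144 h relative to 24 h in vehicle, most glycolytic enzyme transcripts fell, led by the hexokinase Hk2, the enolase Eno1 and the lactate dehydrogenase Ldha, while Hk1, Pfkm and the neuronal enolase Eno2 rose. The summed level of the 16 enzymes was 2303 to 2388 FPKM in vehicle cells at 144 h, against 5028 to 5514 FPKM in vehicle cells at 24 h. As a share of all FPKM in the library this was 0.748% to 0.767% at 144 h, against 1.51% to 1.67% at 24 h. With CT-179 the sums were 2607 to 3526 FPKM at 144 h and 5314 to 5679 FPKM at 24 h. The groups did not overlap between times under either treatment. Fewer cells of a type and less RNA per cell cannot be told apart in bulk samples such as these.

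Hk2 (ENSMUSG00000000628.10, mm10 chr6:82725025-82774454), which phosphorylates glucose at the first step, had 2.28, 1.37 and 2.69 FPKM in CT-179 cells and 2.36, 2.55 and 2.31 FPKM in vehicle cells at 144 h, against 13.7, 14.1 and 15.1 FPKM in CT-179 cells and 15.7, 17.6 and 17.2 FPKM in vehicle cells at 24 h. All 6 libraries at 144 h lay below all 6 at 24 h. Its log2 fold change, 144 h over 24 h, was -2.39 ± 0.14 (SE) in vehicle, with an adjusted p of 6.7e-08 (limma on log2(FPKM + 1), Benjamini-Hochberg over the 12510 rows tested). Hk1 (ENSMUSG00000037012.18, chr10:62268855-62379908), the hexokinase of most adult tissues, went the other way, with 39.1, 27.7 and 39.0 FPKM in CT-179 cells and 45.2, 42.5 and 45.4 FPKM in vehicle cells at 144 h, against 27.8, 28.1 and 27.9 FPKM in CT-179 cells and 27.5, 28.9 and 29.9 FPKM in vehicle cells at 24 h. Its rise was 0.61 ± 0.11 in vehicle (limma adjusted p 0.00066). CT-179 replicate 2 at 144 h lay within the levels at 24 h, and the other 144 h libraries lay above all of them.

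Eno1 (ENSMUSG00000063524.13, chr4:150236721-150248879), the widely expressed enolase, averaged 109 ± 1.89 FPKM in 144 h vehicle cells and 484 ± 17.2 FPKM in 24 h vehicle cells (SD, n = 3 each). Its libraries read 121, 136 and 123 FPKM in CT-179 cells and 110, 109 and 107 FPKM in vehicle cells at 144 h, against 460, 498 and 510 FPKM in CT-179 cells and 467, 501 and 483 FPKM in vehicle cells at 24 h. The times did not overlap, and the fall in vehicle was -2.14 ± 0.07 on the log2 scale (limma adjusted p 1.1e-09). Eno2 (ENSMUSG00000004267.16, chr6:124760055-124769673), the enolase of neurons, had 2.22, 1.98 and 2.06 FPKM in CT-179 cells and 2.81, 2.84 and 2.36 FPKM in vehicle cells at 144 h, against 0.305, 0.30 and 0.424 FPKM in CT-179 cells and 0.368, 0.673 and 0.420 FPKM in vehicle cells at 24 h. Every 144 h library was above every 24 h library, with a rise of 1.31 ± 0.09 in vehicle (limma adjusted p 2.7e-07). The scale of log2(FPKM + 1) understates changes of genes as low as this one. Eno2 was under 1 FPKM in every 24 h library, so it passed the filter through its 144 h libraries alone.

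Ldha (ENSMUSG00000063229.15, chr7:46841475-46855627), the lactate dehydrogenase subunit that favours lactate production, had 100.0, 150.0 and 107 FPKM in CT-179 cells and 87.6, 87.2 and 88.2 FPKM in vehicle cells at 144 h, against 319, 335 and 354 FPKM in CT-179 cells and 299, 334 and 369 FPKM in vehicle cells at 24 h. All 144 h libraries were below all 24 h libraries, and the fall in vehicle was -1.91 ± 0.14 (limma adjusted p 4.4e-07). Pgk1 (ENSMUSG00000062070.12, chrX:106187100-106203699), an ATP-making enzyme of the pathway, had 88.2, 104 and 90.7 FPKM in CT-179 cells and 78.2, 73.8 and 74.4 FPKM in vehicle cells at 144 h, against 212, 220.0 and 233 FPKM in CT-179 cells and 182, 221 and 247 FPKM in vehicle cells at 24 h. It too fell without overlap, with a log2 fold change of -1.50 ± 0.11 in vehicle (limma adjusted p 4.4e-07).

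Of the 16 enzyme rows tested, 13 fell and 3 rose in vehicle, with a median log2 fold change of -1.05 against 0.01 over all rows tested. Over the members together, 32 of 36 were called in vehicle, 8 higher and 24 lower, where 66.5% of all rows tested were called, 34.1% higher and 32.4% lower. Among those called higher, Eno2 and P4ha2 passed the filter through their 144 h libraries alone. Among those called lower, Slc16a3 and Ankrd37 passed it through their 24 h libraries alone. The second Aldoa row, at most 1.02 FPKM in vehicle at 144 h, also passed it through its 24 h libraries. All 3 libraries at 144 h lay above all 3 at 24 h for 9 of the 36 and below for 25, against 44.6% and 42.9% of all rows. The log2 fold changes of the other enzymes that fell ranged from -0.48 for Aldoa, the muscle-type aldolase, to -1.29 for Ldhb, the heart-type lactate dehydrogenase subunit. Tpi1 (-1.17), Gpi1 (-1.08), the liver-type phosphofructokinase Pfkl (-1.08), the pyruvate kinase Pkm (-1.03), Pgam1 (-0.91) and Gapdh (-0.83) stood between them, while Pfkm, the muscle-type phosphofructokinase, rose by 0.64. With FPKM rescaled to a common total in every library (TPM), which moves the median of all rows to 0.11, the same counts of 13 lower and 3 higher enzyme rows were obtained. The share of all rows called with that scaling is not given. Without CT-179 replicate 2 at 144 h, which enters here through the shared spread and the filter, 34 members were called in vehicle, 9 higher and 25 lower, where 87.7% of all rows tested were, 44.2% higher and 43.4% lower.

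**Figure D1:**
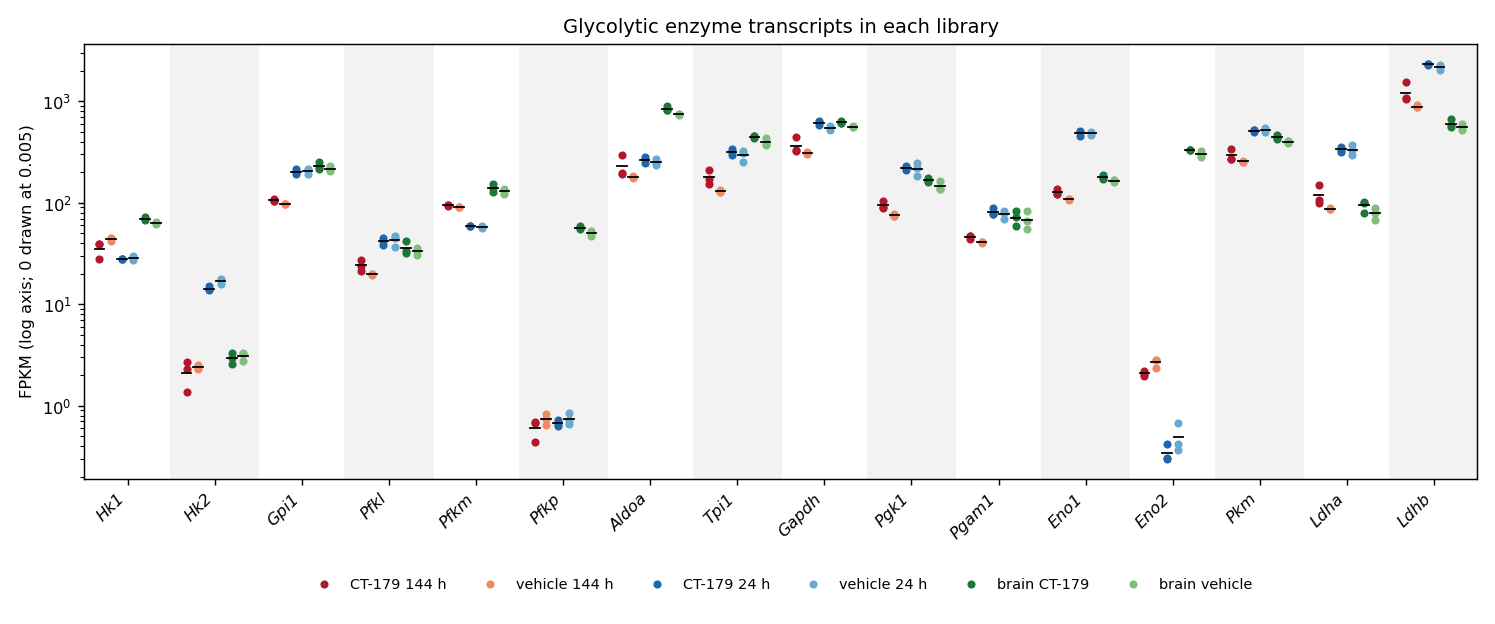
FPKM on a log axis of the 16 glycolytic enzymes in each library, coloured by group, with the mean of each group as a black bar (n = 3 libraries). Hk2 and Eno1 stand well below their 24 h levels at 144 h under both treatments, Eno2 stands above them, and Pfkp is under 1 FPKM in cells and 47.4 to 58.7 FPKM in brain.

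In cells given CT-179 the change with time ran the same way for most members. Of 36 members 28 were called, 7 higher and 21 lower, where 65.3% of all rows tested were called, 33.2% higher and 32.1% lower, and the member median was -0.48 against -0.02 over all rows. The libraries at 144 h lay all above those at 24 h for 5 members and all below for 22, against 33.4% and 34.1% of all rows. Among the enzyme rows 3 rose and 12 fell, and the main Aldoa row was not called (-0.24, limma adjusted p 0.16). With TPM scaling 2 enzyme rows rose and 13 fell, and the share of all rows called there is not given. Without CT-179 replicate 2 at 144 h, 34 members were called (all except Bnip3 and Ndrg1), 8 higher and 26 lower, where 85.6% of all rows tested were called, 43.9% higher and 41.7% lower. The 2 time comparisons share no library, and the difference between them is the same contrast as the difference between the CT-179 effects at the 2 times, given further on.

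**Figure D2:**
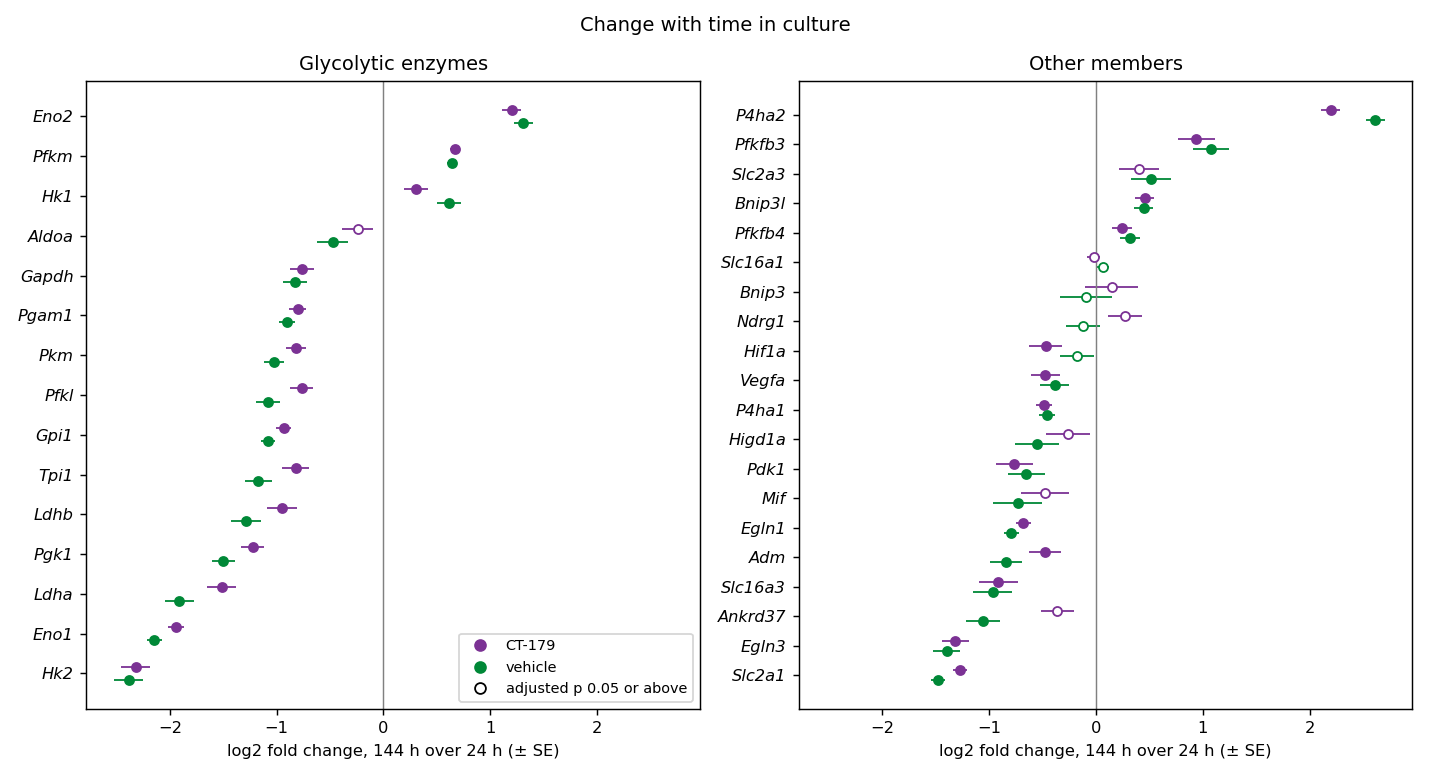
Log2 fold change of each tested member, 144 h over 24 h, on the log2(FPKM + 1) scale with its SE, in CT-179 cells (purple, upper point of each pair) and vehicle cells (green, lower point); open symbols have a limma adjusted p of 0.05 or above. Hk2 (-2.32 with CT-179 and -2.39 with vehicle) and P4ha2 (2.20 with CT-179 and 2.61 with vehicle) are the ends of the range, and the second Aldoa row is left out.

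Ratios of paired isoforms within a library do not depend on its scaling, and they moved with time. Hk1 exceeded Hk2 by 14.5 to 20.3 times with CT-179 and 16.7 to 19.7 times with vehicle at 144 h, against 1.85 to 2.03 times with CT-179 and 1.64 to 1.75 times with vehicle at 24 h. Ldhb exceeded Ldha by 10.2 to 10.4 times with CT-179 and 10.0 to 10.4 times with vehicle at 144 h, against 6.62 to 7.18 times with CT-179 and 6.17 to 7.22 times with vehicle at 24 h. Thus Ldhb was the main lactate dehydrogenase transcript in every cell library, and neither ratio overlapped between times. Eno1 exceeded Eno2 by 54.6 to 68.8 times with CT-179 and 38.3 to 45.1 times with vehicle at 144 h, a gap between treatments with no overlap, against 1200 to 1660 times with CT-179 and 745 to 1270 times with vehicle at 24 h. These ratios are descriptions of 3 libraries per group and carry no test.

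Among the transporters, Slc2a1 (GLUT1; ENSMUSG00000028645.11, chr4:119108711-119137983), the general glucose carrier, had 10.6, 10.6 and 9.75 FPKM in CT-179 cells and 9.71, 9.65 and 9.01 FPKM in vehicle cells at 144 h, against 25.1, 26.2 and 27.9 FPKM in CT-179 cells and 26.8, 28.2 and 29.5 FPKM in vehicle cells at 24 h. The times did not overlap, and it fell by 1.48 ± 0.06 in vehicle (limma adjusted p 8.3e-09). Slc2a3 (GLUT3), the high-affinity glucose carrier of neurons, rose by 0.51 in vehicle (limma adjusted p 0.032), and in cells given CT-179 it was not called (0.40, limma adjusted p 0.08). Slc2a3 was thus 0.882 to 1.34 times Slc2a1 with CT-179 and 1.30 to 1.42 times with vehicle at 144 h, against 0.292 to 0.371 times with CT-179 and 0.231 to 0.361 times with vehicle at 24 h. The lactate exporter Slc16a3 (MCT4), at 0.0585 to 0.184 FPKM in CT-179 cells and 0.0547 to 0.0998 FPKM in vehicle cells at 144 h, was below its levels of 0.738 to 1.66 FPKM in CT-179 cells and 0.567 to 1.51 FPKM in vehicle cells at 24 h. Its fall in vehicle was 0.97 (limma adjusted p 0.00082) on the log2(FPKM + 1) scale, which understates changes at levels this low. Slc16a3 passed the filter through its 24 h libraries alone. Slc16a1 (MCT1), which carries lactate both ways, stayed between 36.7 and 41.8 FPKM in all cell libraries and was not called for time over all libraries. Without CT-179 replicate 2 at 144 h it was called higher with time in vehicle (0.07, limma adjusted p 0.012) and lower in CT-179 cells (-0.08, limma adjusted p 0.0083).

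Of the enzymes that set flux, Pfkfb3 (ENSMUSG00000026773.19, chr2:11471433-11554077), which makes the sugar phosphate that activates phosphofructokinase, had 21.0, 11.6 and 20.7 FPKM in CT-179 cells and 21.2, 21.7 and 20.9 FPKM in vehicle cells at 144 h, against 8.17, 8.44 and 8.79 FPKM in CT-179 cells and 9.18, 9.71 and 9.81 FPKM in vehicle cells at 24 h. All 144 h libraries were above all 24 h libraries, CT-179 replicate 2 by the least, and the rise in vehicle was 1.08 ± 0.17 (limma adjusted p 0.00024). Pfkfb4, a relative of the same function, rose by 0.32 (limma adjusted p 0.013). Pdk1, a kinase that inhibits pyruvate dehydrogenase, fell by 0.65 (limma adjusted p 0.0072). Thus the activator kinases rose where 13 of the 16 enzyme rows fell.

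Within the HIF pathway 8 genes fell, 2 rose and 3 were not called in vehicle, with a median of -0.46. Over all rows tested 32.4% were called lower and 34.1% higher. With TPM scaling 7 of these genes were called lower and 2 higher, and the share of all rows called there is not given. The member that rose most was P4ha2 (ENSMUSG00000018906.14, chr11:54100095-54131662), a catalytic subunit of the collagen prolyl hydroxylase of the endoplasmic reticulum. It had 5.37, 6.33 and 5.06 FPKM in CT-179 cells and 8.49, 8.40 and 7.96 FPKM in vehicle cells at 144 h, against 0.381, 0.456 and 0.457 FPKM in CT-179 cells and 0.415, 0.454 and 0.692 FPKM in vehicle cells at 24 h. The times did not overlap and neither did the treatments at 144 h, and the rise with time was 2.61 ± 0.09 in vehicle (limma adjusted p 1.3e-09). P4ha2 was under 1 FPKM in every 24 h library, so it passed the filter through its 144 h libraries alone. Its p for time carries that selection. The sister subunit P4ha1 fell by 0.46 (limma adjusted p 0.00032), so that P4ha1 exceeded P4ha2 by 2.51 to 3.79 times with CT-179 and 2.09 to 2.28 times with vehicle at 144 h, against 54.7 to 61.1 times with CT-179 and 37.2 to 57.9 times with vehicle at 24 h.

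Egln3 (ENSMUSG00000035105.5, chr12:54178981-54203860), the HIF prolyl hydroxylase that HIF itself induces, had 6.55, 4.72 and 7.04 FPKM in CT-179 cells and 5.90, 5.50 and 5.60 FPKM in vehicle cells at 144 h, against 15.3, 16.4 and 17.9 FPKM in CT-179 cells and 14.5, 17.1 and 18.3 FPKM in vehicle cells at 24 h. It fell without overlap, with a log2 fold change of -1.40 ± 0.13 in vehicle (limma adjusted p 2.9e-06), and Egln1, the main HIF hydroxylase, fell by 0.79 (limma adjusted p 2.9e-06). Ankrd37 (ENSMUSG00000050914.16, chr8:45996902-46005707), a HIF target of little known function, had 0.478, 0.761 and 0.590 FPKM in CT-179 cells and 0.335, 0.413 and 0.201 FPKM in vehicle cells at 144 h, against 0.829, 1.09 and 1.29 FPKM in CT-179 cells and 1.09, 2.01 and 2.24 FPKM in vehicle cells at 24 h. Its fall in vehicle was -1.06 ± 0.16 (limma adjusted p 0.00013), while with CT-179 it was not called over all libraries (-0.36, limma adjusted p 0.064), although all 3 libraries at 144 h lay below all 3 at 24 h. Without replicate 2 at 144 h it was called lower there too (-0.43, limma adjusted p 0.028). Ankrd37 was under 1 FPKM in every 144 h library, so it passed the filter through its 24 h libraries alone.

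The other HIF pathway genes that fell in vehicle were the vasodilator peptide gene Adm (-0.84), the cytokine gene Mif (-0.73), the mitochondrial Higd1a (-0.56) and the vessel growth factor Vegfa (-0.39), with limma adjusted p of 0.00058, 0.015, 0.034 and 0.028 in that order. Bnip3l, a mitophagy receptor, rose by 0.45 (limma adjusted p 0.0012). Its relative Bnip3 (-0.09), Hif1a (-0.18) and the stress gene Ndrg1 (-0.12) were not called over all libraries. Hif1a was below its 24 h levels in all 3 vehicle libraries at 144 h, and was called lower when CT-179 replicate 2 at 144 h was left out of the shared spread (-0.18, limma adjusted p 8.8e-05). Car9, the carbonic anhydrase used as a hypoxia marker, was listed at 0 in all 3 vehicle libraries at 144 h, at 0.0106 to 0.0519 FPKM with CT-179 at 144 h, and at 0.237 to 0.399 FPKM in CT-179 cells and 0.299 to 0.644 FPKM in vehicle cells at 24 h.

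**Figure D3:**
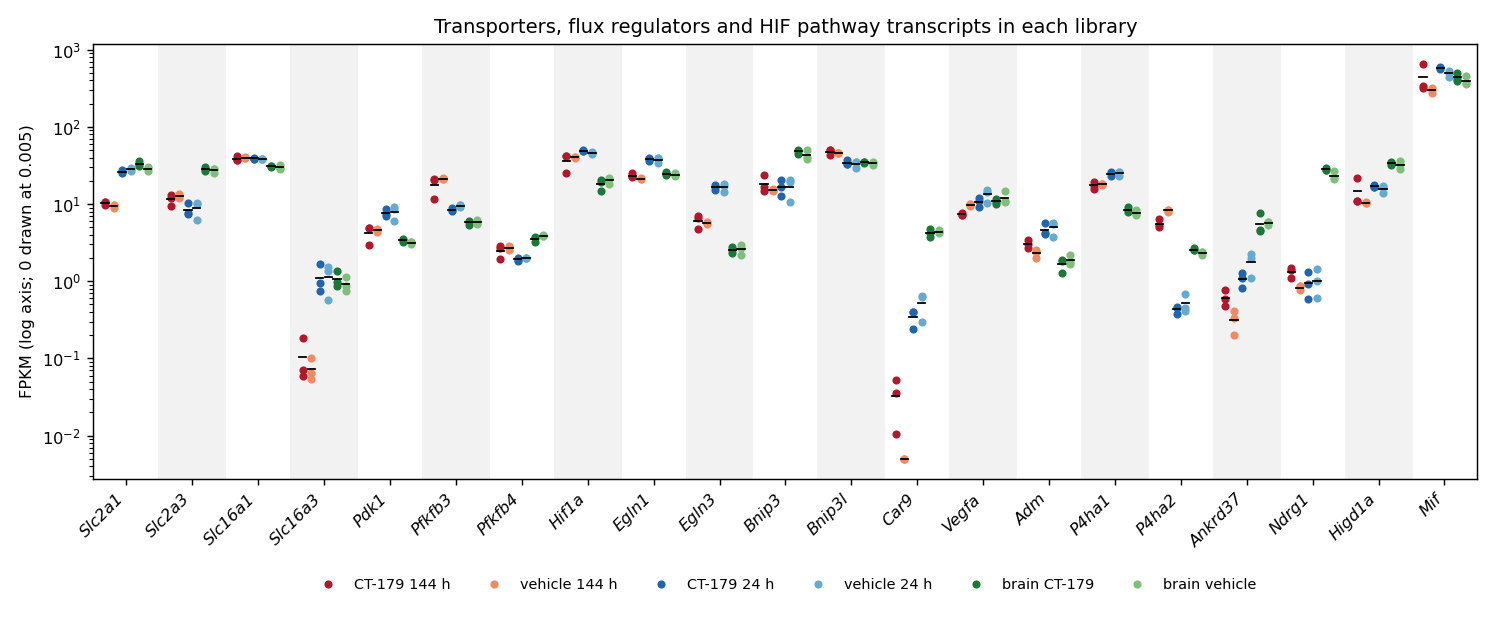
FPKM on a log axis of the 4 transporters, 3 flux enzymes and 14 HIF pathway genes in each library, coloured by group, with group means as black bars (n = 3 libraries). P4ha2 and Pfkfb3 stand above, and Slc2a1, Slc16a3, Egln3 and Car9 below, their 24 h levels at 144 h; values of 0 are drawn at the floor of the axis.

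Markers of other cell types moved with time as well, in both directions. The astrocyte markers summed to 327 to 486 FPKM in CT-179 cells and 501 to 508 FPKM in vehicle cells at 144 h, against 103 to 106 FPKM in CT-179 cells and 106 to 108 FPKM in vehicle cells at 24 h, with 7 of 8 markers at 1 FPKM or more at 144 h and 4 of 8 at 24 h. The neuron markers summed to 62.1 to 99.5 FPKM in CT-179 cells and 105 to 108 FPKM in vehicle cells at 144 h, against 41.9 to 44.3 FPKM in CT-179 cells and 44.5 to 45.5 FPKM in vehicle cells at 24 h. Gad2 and Stmn2 were listed at 0 at 24 h. The SHH and granule precursor markers summed to 36.1 to 60.6 FPKM in CT-179 cells and 72.4 to 74.9 FPKM in vehicle cells at 144 h, against 23.6 to 25.0 FPKM in CT-179 cells and 26.6 to 27.6 FPKM in vehicle cells at 24 h. The sum of the oligodendrocyte lineage markers ran the other way, at 751 to 896 FPKM in CT-179 cells and 687 to 709 FPKM in vehicle cells at 144 h, against 1100 to 1190 FPKM in CT-179 cells and 1020 to 1140 FPKM in vehicle cells at 24 h. Their number at 1 FPKM or more did not fall, with 6 of 11 at 144 h and 5 of 11 at 24 h under both treatments. The part of these markers in the changes of the members was not tested.

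In wider lists of related genes the directions in vehicle were mixed. Of 30 further glycolysis and pyruvate genes tested, 9 rose and 13 fell. Of 36 further HIF regulators and targets tested, 16 rose and 10 fell. Over all rows tested 34.1% rose and 32.4% fell. Pdk2 and Pdk4, which like Pdk1 inhibit pyruvate dehydrogenase, rose by 2.19 and 1.33, the pyruvate carboxylase gene Pcx rose by 1.25, and Tigar, a phosphatase that opposes glycolysis, fell by 1.24. Pdk2 averaged 21.6 ± 0.287 FPKM in 144 h vehicle cells and 3.99 ± 0.456 FPKM in 24 h vehicle cells (SD, n = 3 each). In the HIF list the chemokine receptor Cxcr4 (3.36) was highest and the cytokinesis gene Anln (-3.06) lowest on the log2(FPKM + 1) scale. The stanniocalcin genes Stc2 (-1.94) and Stc1 (-1.77) were also among those that fell. This scale understates changes of low genes such as Stc1 (0.122 FPKM at 144 h and 2.86 FPKM at 24 h in vehicle) and Pdk4 (1.68 and 0.0687 FPKM). Anln read 3.44 FPKM at 144 h and 36.1 FPKM at 24 h, so the order is not one of FPKM ratios. Every gene named from these lists had a limma adjusted p of 2.7e-06 or lower. Of these, Pdk4 passed the filter through its 144 h libraries alone, and Stc1 and Stc2 through their 24 h libraries alone. In CT-179 cells the genes with the largest changes on the same scale were Pdk2 (2.03), Tigar (-1.36), Pcx (1.14) and Pdk4 (1.09) in the first list, and Cxcr4 (3.56), Anln (-3.25), Stc2 (-1.93) and the stress gene Ddit4 (1.74) in the second, with limma adjusted p of 6.1e-06 or lower.

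Within the 24 h groups the members varied together between replicates. Bnip3 (ENSMUSG00000078566.8, chr7:138890836-138909506) had 12.7, 16.6 and 20.2 FPKM in CT-179 replicates 1, 2 and 3 and 10.7, 19.5 and 20.3 FPKM in vehicle replicates 1, 2 and 3. Replicate 1 was the lowest library for 30 of 36 members with CT-179 (83.3%, against 32.7% of all rows tested) and for 31 of 36 with vehicle (86.1%, against 29.6%). At 144 h replicate 1 was lowest for 17 of 36 members with CT-179 (47.2%, against 23.1% of all rows tested) and 5 of 36 with vehicle (13.9%, against 33.3%). The HIF pathway genes had a median SD of log2(FPKM + 1) of 0.11 with CT-179 and 0.14 with vehicle at 24 h, against 0.04 and 0.06 over all rows tested. Of these genes 7 of 13 with CT-179 and 10 of 13 with vehicle were above the 90th percentile of all rows. At 144 h with vehicle their median SD was 0.04, as over all rows, with 3 of 13 above that percentile. The labels give no culture, date or batch to which replicate 1 could be tied, and the pattern carries no test.

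**Figure D4:**
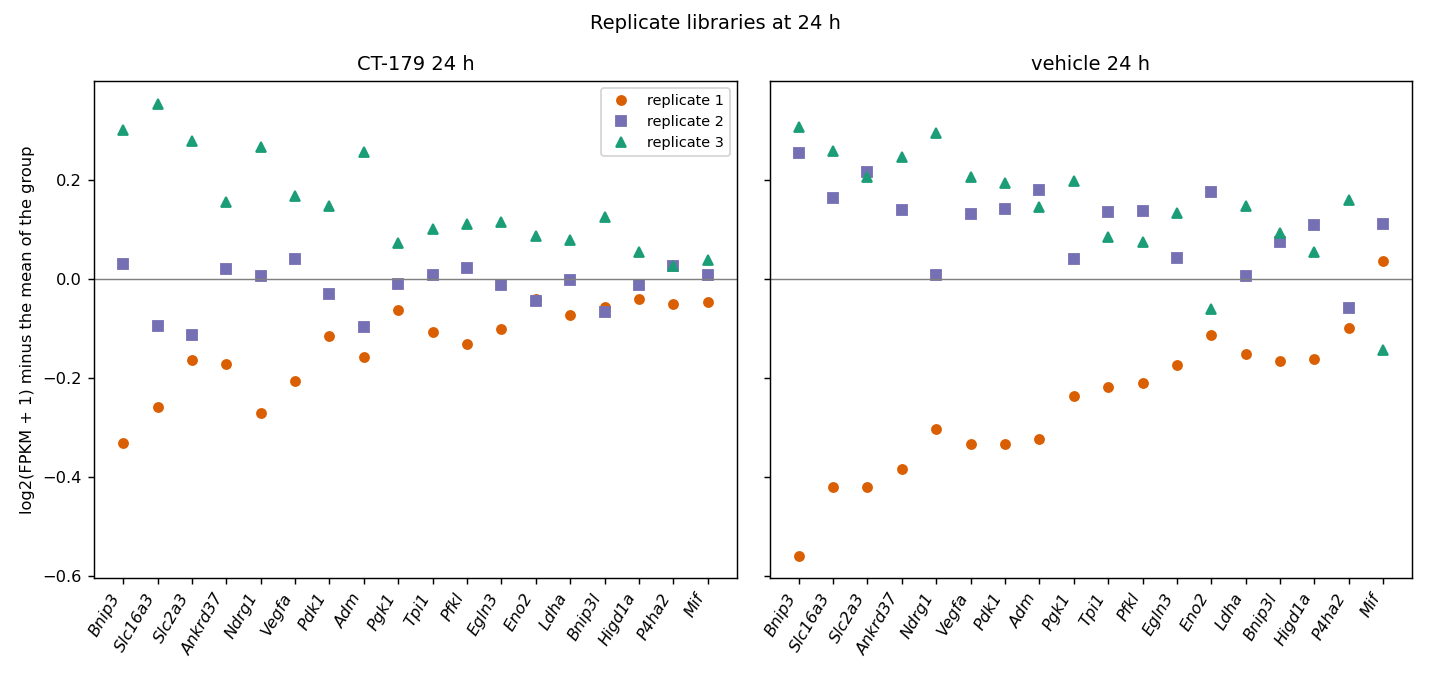
Deviation of log2(FPKM + 1) from the group mean in the 3 replicates at 24 h, with CT-179 on the left and vehicle on the right, for the 18 members with the largest SD in the vehicle group. Replicate 1 is at the bottom for most genes in both panels, as for Bnip3 (12.7 FPKM in CT-179 cells and 10.7 FPKM with vehicle).

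At 24 h no call separated CT-179 from vehicle among the members over all libraries. With limma over all libraries 0 of 36 were called, where 0.264% of all rows tested were called, and 2 members, Ankrd37 (-0.41) and the second Aldoa row (-0.25), had an unadjusted p under 0.05. The member median was -0.01, as it was over all rows. The libraries of CT-179 lay all above vehicle for 4 members and all below for 2, against 14.5% and 22.9% of all rows. Without CT-179 replicate 2 at 144 h, which enters this comparison through the shared estimate of spread and the filter alone, 5 members were called where 22.2% of all rows tested were, 8.08% higher and 14.1% lower. Mif (0.23), Gapdh (0.15) and Hif1a (0.10) rose and Hk2 (-0.22) and Pfkfb3 (-0.16) fell, with limma adjusted p of 0.007 to 0.032. With TPM scaling in that fit the called members were 0 higher and 4 lower, and with median-of-ratios scaling 6 higher and 2 lower. The shares of all rows called under these scalings are not given here, so these counts are not results about the members.

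The values behind these calls were close together. Gapdh (ENSMUSG00000057666.18, chr6:125161853-125166467), which oxidises glyceraldehyde 3-phosphate, had 582, 624 and 636 FPKM in CT-179 cells and 528, 571 and 556 FPKM in vehicle cells at 24 h. Mif had 557, 579 and 591 FPKM in CT-179 cells and 504, 531 and 445 FPKM with vehicle. Hif1a had 49.4, 48.1 and 50.5 FPKM in CT-179 cells and 44.5, 47.4 and 45.9 FPKM with vehicle. For Gapdh, Mif, Hif1a, Hk2 and Pfkfb3 the 2 groups did not overlap at 24 h. Among the further lists, Wsb1, an E3 ligase adaptor known as a HIF target, changed by -0.94 ± 0.14 at 24 h (limma adjusted p 0.033 over all libraries), with 8.91 ± 0.403 FPKM in CT-179 cells and 18 ± 0.903 FPKM with vehicle (SD, n = 3 each).

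At 144 h P4ha2 was the one member called between CT-179 and vehicle over all libraries. Its mean and SD over 3 libraries were 5.58 ± 0.663 FPKM in CT-179 cells and 8.28 ± 0.281 FPKM with vehicle, and its log2 fold change was -0.50 ± 0.09 (limma adjusted p 0.013), where 3.88% of all rows tested were called, 3.37% lower and 0.512% higher. Another 10 members had an unadjusted p under 0.05, as did 3647 of the 12510 rows tested. The call was kept without CT-179 replicate 2 (-0.58, limma adjusted p 0.00032) and lost without vehicle replicate 1, 2 or 3 (adjusted p 0.071, 0.073 and 0.055) or with the trend on gene length removed (-0.34, adjusted p 0.14), the direction staying the same.

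Of the glycolytic enzyme rows at 144 h, 0 of 16 were called, and 9 had an unadjusted p under 0.05, against 3647 of 12510 over all rows. The 3 CT-179 libraries lay all above the 3 vehicle libraries for 12 of 16 enzyme rows and all below for 3 (Hk1, Eno2 and the second Aldoa row). Over all rows tested 19.1% lay all above and 27.0% all below. With TPM scaling the enzyme counts were 3 above and 3 below, against 8.43% and 42.3% of all rows. With the length trend removed they were 9 above and 2 below, against 21.2% and 17.4% of all rows. The enzyme median was 0.20 against -0.05 over all rows, and with TPM scaling it was 0.01 against -0.23. As a share of all FPKM the enzymes were 0.81% to 0.83% with CT-179 and 0.748% to 0.767% with vehicle. CT-179 replicate 2 was the highest of the 6 libraries for 11 of the 16 enzyme rows and the lowest for 4 (Hk1, Hk2, Eno2 and the second Aldoa row); Pfkm was the exception. Markers moved with treatment as well, without overlap: of the sums at 144 h given above, the SHH, astrocyte and neuron sums were lower with CT-179 than with vehicle, and the oligodendrocyte lineage sum was higher. Their part in the enzyme levels was not tested.

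Without CT-179 replicate 2 at 144 h, 7 members were called, where 28.7% of all rows tested were, 11.8% higher and 16.9% lower. Tpi1 (0.33), Ldhb (0.26), Ldha (0.23) and Eno1 (0.17) rose and P4ha2 (-0.58), Hk1 (-0.18) and Slc16a1 (-0.11) fell, with limma adjusted p of 0.00032 to 0.03. With TPM scaling in that fit 2 members were called higher and 4 lower, and with median-of-ratios scaling 6 higher and 3 lower. As at 24 h, the shares of all rows called under these scalings are not given, and the counts are not results about the members. Tpi1 (ENSMUSG00000023456.16, chr6:124810586-124814296), the triose phosphate isomerase, had 155, 213 and 172 FPKM in CT-179 cells and 133, 129 and 127 FPKM in vehicle cells at 144 h. Ldhb (ENSMUSG00000030246.12, chr6:142490249-142507957) had 1050, 1540 and 1080 FPKM in CT-179 cells and 915, 872 and 884 FPKM with vehicle. Slc16a1 had 37, 41.8 and 36.7 FPKM in CT-179 cells and 40.3, 39.3 and 39.5 FPKM with vehicle. Tpi1 and Ldhb did not overlap between treatments, while Slc16a1 overlapped, since CT-179 replicate 2 lay above vehicle and replicates 1 and 3 below it.

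Of the 13 HIF pathway genes tested at 144 h, P4ha2 was called over all libraries. CT-179 lay all above vehicle for 5 of them and all below for 2, against 19.1% and 27.0% of all rows tested. With TPM scaling the counts were 3 and 2, against 8.43% and 42.3% of all rows. Of the 4 transporters and 3 flux enzymes 0 were called, and 0 had an unadjusted p under 0.05. Vegfa at 144 h had 7.27, 7.17 and 7.68 FPKM in CT-179 cells and 10.0, 9.35 and 10.1 FPKM with vehicle, without overlap, and was not called (-0.37, limma adjusted p 0.14). Of the further lists over all libraries, Pdk3, another pyruvate dehydrogenase kinase (0.40, limma adjusted p 0.0078), and the brain aldolase Aldoc (0.31, limma adjusted p 0.033) rose and Wsb1 (-1.50, limma adjusted p 0.00077) fell. Aldoc had a mean of 717 ± 16.5 FPKM with CT-179, against 579 ± 8.09 FPKM in vehicle cells (SD of 3 libraries). The main Aldoa row read 192 to 295 FPKM in CT-179 cells and 177 to 186 FPKM with vehicle.

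The effect of CT-179 at 144 h minus that at 24 h was called for 0 of 36 members with limma over all libraries, where 0.0% of all rows tested were called; 3 members and 574 of all rows had an unadjusted p under 0.05. Without CT-179 replicate 2 at 144 h, P4ha2 (-0.50 ± 0.10, limma adjusted p 0.028) and Slc16a1 (-0.15 ± 0.03, limma adjusted p 0.04) were called, where 2.66% of all rows were, 1.2% higher and 1.46% lower. For P4ha2 the effect of CT-179 was lower at 144 h than at 24 h, at which time all its libraries were at most 0.692 FPKM.

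**Figure D5:**
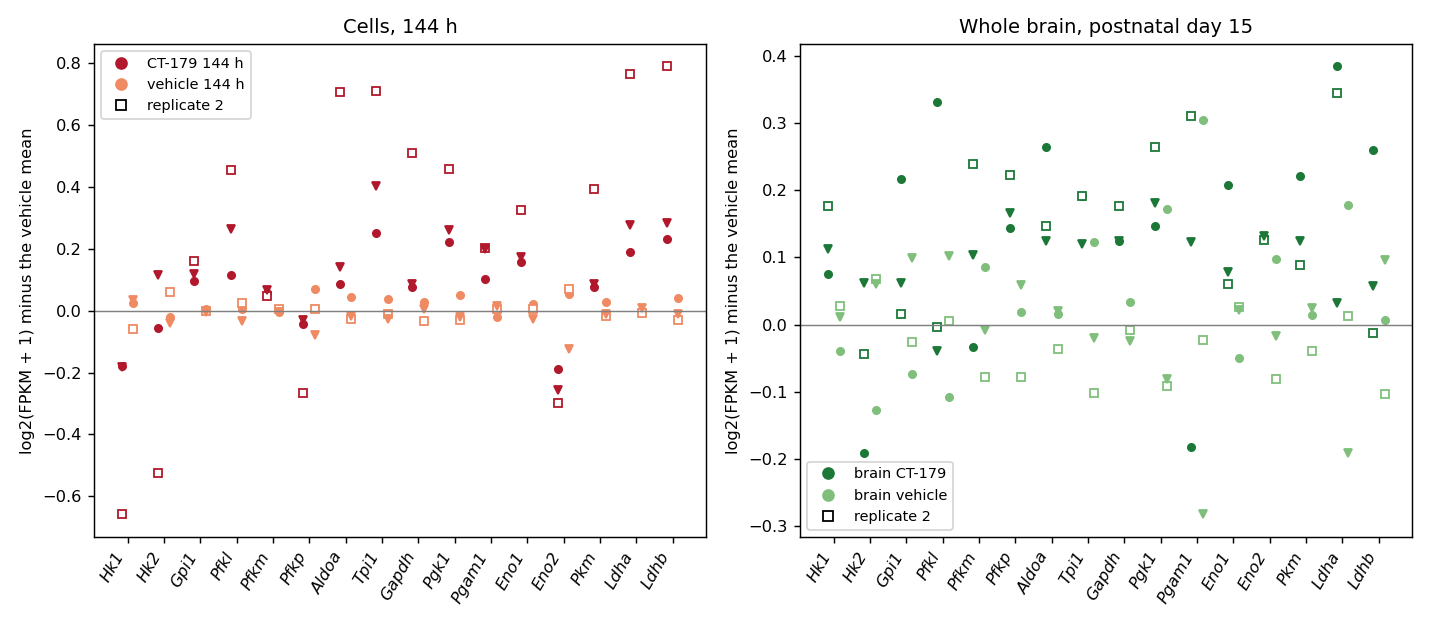
Log2(FPKM + 1) of the glycolytic enzymes in each library minus the vehicle mean, for cells at 144 h (left) and whole brain at postnatal day 15 (right), with CT-179 left of vehicle for each gene and replicate 2 as open squares. At 144 h replicate 2 of CT-179 is the farthest point for most genes, and CT-179 replicates 1 and 3 also stand above vehicle for Tpi1, Ldha and Ldhb. With TPM scaling all 3 CT-179 libraries lie above vehicle for 3 of 16 rows and not 12, while the share of all rows tested falls from 19.1% to 8.43%. In brain the symbols of the groups are interleaved for Hk2, Gpi1, Pfkl and Pgam1.

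In whole brain at postnatal day 15 the direction of every value rests on the treatment labels, which the titles and the letters of the library names leave in doubt. With limma 0 of 36 members and 0 of 13422 rows were called (0.0%), and 3 members and 490 of all rows had an unadjusted p under 0.05. Among 38 member rows of the authors' deposited table, 0 had a false discovery rate under 0.05, and the lowest p among them was 0.089. All 37 symbols were read in every brain library. Eno2 was 1.74 to 1.93 times Eno1 in CT-179 brains and 1.71 to 2.04 times in vehicle brains, and Pfkp, under 1 FPKM in every cell library, was 1.32 to 1.77 times Pfkl in CT-179 brains and 1.42 to 1.65 times in vehicle brains. Eno1b, a near-identical copy of Eno1, read 63.4 to 75.7 FPKM in brain, so the brain level of Eno1 is uncertain, whereas it read at most 0.929 FPKM in cells.

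The 5 members with the smallest p in brain were Ndrg1, Slc2a1, Pfkp, Pgk1 and Ldha, each with a limma adjusted p of 0.97. Ndrg1 (ENSMUSG00000005125.13, chr15:66929318-66969640), a gene of myelinating cells as well as a HIF target, had 29.0, 27.6 and 27.8 FPKM in CT-179 brains and 26.7, 21.5 and 20.9 FPKM in vehicle brains (0.29 ± 0.10). Slc2a1 had 31.0, 36.0 and 33.5 FPKM in CT-179 brains and 30.0, 29.4 and 26.9 FPKM in vehicle brains (0.21 ± 0.08). These groups did not overlap, the gap being 27.6 against 26.7 FPKM for Ndrg1 and 31.0 against 30.0 FPKM for Slc2a1. Pfkp had 55.5, 58.7 and 56.4 FPKM in CT-179 brains and 50.8, 47.4 and 52.3 FPKM in vehicle brains (0.18 ± 0.07), again without overlap. Pgk1 had 161, 175 and 165 FPKM in CT-179 brains and 164, 136 and 137 FPKM in vehicle brains. Ldha had 103, 99.8 and 80.1 FPKM in CT-179 brains and 88.8, 79.0 and 68.4 FPKM in vehicle brains. Both overlapped between groups.

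In brain 10 members lay all above vehicle in CT-179 libraries (Hk1, Pfkp, Aldoa, Gapdh, Eno1, Eno2, Pkm, Slc2a1, P4ha2 and Ndrg1) and 1 all below (Pfkfb4). Over all rows tested 5.71% lay all above and 4.6% all below. With TPM scaling 0 members did either, where 0.641% of all rows lay above and 9.18% below. With the length trend removed 9 lay above and 0 below, where 4.62% of all rows lay above and 5.06% below. The member median was 0.10 against 0.02 over all rows, and with TPM scaling it was 0.01 against -0.07. Without vehicle replicate 2, 0 members were called, where 0.00754% of all rows tested were (1 row, higher), and 0 had an unadjusted p under 0.05, and the member median was 0.08. The enzymes summed to 4227 to 4492 FPKM in CT-179 brains and 3787 to 4037 FPKM in vehicle brains. Their shares of all FPKM, 1.03% to 1.15% in CT-179 brains and 1.00% to 1.14% in vehicle brains, overlapped. All 10 neuron markers were present and summed to 2140 to 2300 FPKM in CT-179 brains and 1910 to 2110 FPKM in vehicle brains. All 11 oligodendrocyte lineage markers summed to 5420 to 6870 FPKM in CT-179 brains and 5060 to 5480 FPKM in vehicle brains. The part of these markers in the values of the members was not tested.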

How the data were processed

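The submitters' processing notes name the mm10 genome, R 3.6 with edgeR 3.28.1, HTSeq 0.6.1p2, STAR 2.6.0c and Trim Galore 0.5.0; strand, annotation and settings are not given in the sources used here. What the authors deposited was FPKM per gene in each library. For brain there were also, per the file headers, a p-value and false discovery rate, a likelihood ratio score, and log2 values for the fold change and the mean abundance. That deposited log2 fold change runs the C libraries over the V libraries, which by the treatment labels is vehicle over CT-179. By the same labels it matched vehicle replicates 1 and 3 over the 3 CT-179 replicates (r 0.996 across genes). Low FPKM were whole multiples of 1 read for 89.2% to 91.2% of values in cells and 93.0% to 97.7% in brain (tolerance 0.1, up to 20 reads), which gave the depths. FPKM are not counts, so no count model was run.

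A row was tested if 3 or more libraries had 1 FPKM or more. The test was that of limma 3.58.1 (R 4.3.3, two-sided, mean trend) on log2(FPKM + 1), with the 12 cell libraries in 1 fit and the 6 brain libraries in another. P-values were adjusted by Benjamini-Hochberg over all rows, with a threshold of 0.05. The members, lists and tests were chosen with earlier results of these data known. All members are named. Values per library are given for members past the threshold for CT-179 (otherwise the 5 smallest p) and, for time, for the 5 enzymes and 5 other members that changed most in vehicle; those of Bnip3 and Vegfa are outside this rule and were chosen after their values were seen. Alternatives were a pseudocount of 0.1, no filter, other scalings, removal of the length trend, array weights, a replicate block, separate fits and leaving out each library.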

Additional observations from a re-analysis of the deposited data

How the results depend on the processing

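For time, the members called stayed within 1.5 times of 32 with vehicle and 28 with CT-179 under every alternative run, and in brain 0 were called under every one. For CT-179 at 24 h the 0 called became 7 with array weights, 4 in a separate fit of the 6 libraries, and 0 to 5 on leaving out 1 library, the 5 without CT-179 144 h replicate 2. Without that library, median-of-ratios scaling gave 8, removal of the length trend 3, and, chosen after seeing the data, a replicate block 6 and TPM scaling 4. At 144 h the 1 called became 0 with a pseudocount of 0.1, 0 with the length trend removed, 0 in a separate fit, 19 with array weights, and 0 to 7 on leaving out 1 library. Without replicate 2 it was 9 with median-of-ratios scaling, 5 with the length trend removed, 9 with the block and 6 with TPM scaling. For the difference between times the 0 called became 5 with array weights, 0 to 2 on leaving out 1 library, and, without replicate 2, 2 with either median-of-ratios scaling or the length trend removed. Shares over all rows called are given only for all libraries, without CT-179 144 h replicate 2 and without brain vehicle replicate 2. For every other alternative, including the pseudocount and the length trend, they are not given. The member counts of those alternatives are not results about the members. Over all rows tested the called rows were 2762 without replicate 2 against 33 with it at 24 h, and 3580 against 486 at 144 h. At 24 h that library is in neither group compared, and it enters through the shared estimate of spread and the filter alone. The log2 fold change of Hk2 at 24 h was -0.22 in both fits, with an SE of 0.14 over all libraries and 0.06 without replicate 2. Why replicate 2 differs from its group was not tested.

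Slc16a1, called in neither over all libraries, changed sign in 144 h over 24 h with CT-179 (-0.02 over all libraries, -0.081 to 0.011 on leaving out 1 library, 0.006 of them without replicate 1 and 0.011 without replicate 3, 0.018 with TPM scaling and no replicate 2) and in CT-179 over vehicle at 144 h (0.008 with median-of-ratios scaling, 0.000 with the length trend removed). Same-numbered libraries had deviations correlated at -0.13 to 0.24 in cells and -0.39 to 0.11 in brain, so numbers were not taken as pairs. The replicate block left 0 members called at 24 h, 1 at 144 h, 32 for time with vehicle, 29 for time with CT-179 and 0 in brain. The TPM and length-trend counts of libraries that did not overlap were also chosen after seeing the data. The depth of 17800000 reads of brain vehicle replicate 2 limits low genes there most.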
